A study of Mus musculus with 4 samples.

Results

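The immunity-related p47 GTPases are a family of interferon-inducible GTP-binding proteins of the mouse, and 6 of their genes, Irgm1, Irgm2, Igtp, Iigp1, Tgtp1 and Tgtp2, were followed here in RANKL-stimulated bone marrow derived macrophages (BMMs). The genes were found by name in the deposited table, which holds all 6 of them among 34745 mouse genes. BMMs are primary macrophages obtained by culturing bone marrow cells with M-CSF, and RANKL turns them into bone-resorbing osteoclasts. Cells from wild-type (labelled wt) male C57BL/6 mice, 8 weeks old, spent 12 h in medium lacking FBS, after which they received RANKL (100 ng/mL) for 24 h together with dimethyl itaconate (DI), a membrane-permeable derivative of the macrophage metabolite itaconate, or with its vehicle DMSO. The dose of DI is 20 mM in the sample labels and 20 μM in the study's methods. There were 2 libraries with DI and 2 with DMSO. All 4 libraries carried RANKL, so the comparison gives the effect of DI on stimulated cells, and unstimulated cells were not analysed here. The labels do not say whether the 2 libraries of a group came from separate mice or cultures, and p-values measure the spread between these libraries, which may be technical.

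In textbook accounts the family acts in cell-autonomous defence against intracellular parasites and bacteria. The effector members, to which Iigp1 (also called Irga6) and the Tgtp proteins (Irgb6) belong, gather on the membrane of the vacuole around a parasite such as Toxoplasma and help to break it. The regulatory members Irgm1, Irgm2 and Igtp (Irgm3), whose nucleotide-binding loop carries a methionine in place of a lysine, sit on the cell's own membranes and keep the effectors inactive there. Interferons act through their receptors and the JAK kinases on transcription factors, which bind GAS or ISRE elements in promoters. ISRE elements serve mainly the response to type I interferons, for which STAT2 and IRF9 are needed.

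The promoters show what the genes share in sequence. Of the 6 genes, 5 had an entry among the RefSeq promoters on GRCm38.p6, and Iigp1 had none. The stretch from 100 to 11 bases before the start site is printed 5′ to 3′ on the strand of the gene, with capitals marking the letters of an ISRE core (GAAA, any 2 bases, then GAAA again) or a GAS element (TTCNNNGAA, where N is any base). The stretches lie at chr11:48871431-48871520 for Irgm1, chr11:58214877-58214966 for Irgm2, chr11:58199456-58199545 for Igtp, chr11:48992257-48992346 for Tgtp1 and chr11:49064223-49064312 for Tgtp2. Irgm2 and Igtp are encoded on the plus strand and the other 3 on the minus strand. The deposited Irgm2 gene begins at 58199618, well before its printed stretch and near the Igtp gene, which begins at 58199556. On the minus strand, the deposited Tgtp1 gene begins at 48994172 and the Irgm1 gene at 48871683, so their printed stretches lie inside the deposited spans. The counts of Irgm2, Tgtp1 and Irgm1 are therefore not tied to the printed promoters alone.
Irgm1: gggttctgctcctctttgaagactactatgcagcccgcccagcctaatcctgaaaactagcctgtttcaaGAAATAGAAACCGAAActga
Irgm2: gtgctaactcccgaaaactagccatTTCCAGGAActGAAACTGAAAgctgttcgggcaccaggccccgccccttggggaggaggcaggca
Igtp: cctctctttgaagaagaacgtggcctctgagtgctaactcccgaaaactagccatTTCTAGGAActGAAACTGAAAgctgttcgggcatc
Tgtp1: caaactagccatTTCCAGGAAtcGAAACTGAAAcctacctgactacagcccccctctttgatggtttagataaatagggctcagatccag
Tgtp2: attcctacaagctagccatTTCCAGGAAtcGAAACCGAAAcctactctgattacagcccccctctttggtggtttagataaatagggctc
In Irgm2, Igtp, Tgtp1 and Tgtp2 a GAS element stood directly ahead of an ISRE core, with 2 bases between them. In Irgm1 there were 2 ISRE cores that overlapped each other, and no GAS letters were found in the window. Both motifs were searched on both strands over 300 bases of each promoter. Of 27025 genes with a promoter, 3.99% held the ISRE core and 9.55% the GAS element. The joined letters, a GAS element, any 2 bases and then an ISRE core, a search added after the sequences were seen, were found in 5 genes of the 27025, namely the 4 members above and Gm12185, a further gene of the family on chromosome 11. Gm12185 and Tgtp1 overlap on the same strand and share 223 exonic bases. Gm12185 begins at 48992226, beside the Tgtp1 stretch, so its match may be the Tgtp1 letters counted again. The letters around the motifs are also nearly the same in Irgm2 and Igtp, and again in Tgtp1 and Tgtp2. The 5 matches are therefore not 5 independent occurrences. The matches describe the letters, and binding of a factor was not measured.

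**Figure D1:**
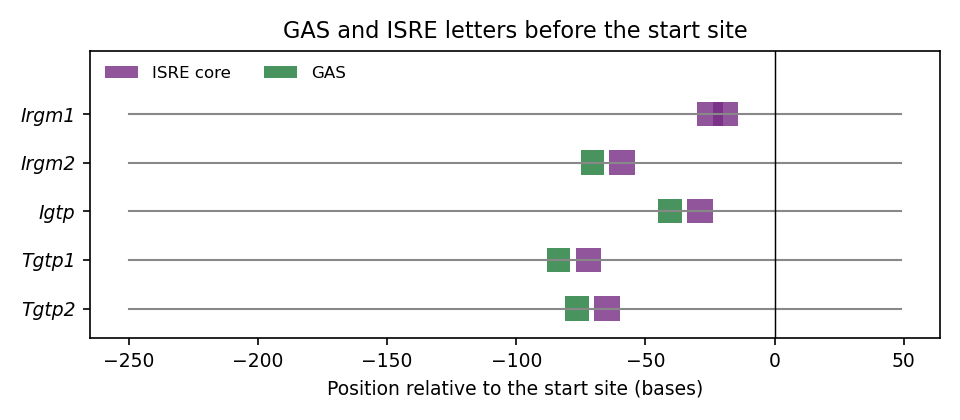
Positions of the GAS (green) and ISRE core (purple) letters in the promoters of 5 p47 GTPase genes, over a window of 300 bases, with the start site as position 0 on the horizontal axis in bases. The GAS and ISRE letters stand side by side in 4 genes, and the 2 ISRE cores of Irgm1 overlap.

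With DI, 4 of the 6 genes were lower at an adjusted p under 0.05, namely Irgm1, Irgm2, Iigp1 and Tgtp2, and none was higher. Igtp lay lower without passing the threshold, and Tgtp1 held too few counts to be tested. Across the transcriptome, 12590 genes passed the filter on low counts and entered the quasi-likelihood test of edgeR. Of these, 14.8% had an adjusted p under 0.05, 7.7% being lower and 7.14% higher with DI. The log2 fold changes (DI over DMSO) of the 5 tested members had a median of -0.64, against 0.0012 for all tested genes. In 4 of these 5 genes both libraries of each group passed the filter, whereas Iigp1 passed it through its DMSO libraries alone and is not independent support for the direction. Both DI libraries lay below both DMSO libraries in each of the 5 tested genes, as they did in 29.6% of all tested genes, and in 58.6% the groups were apart in either direction. The counts come from bulk RNA, in which fewer cells of a type and less RNA per cell cannot be told apart.

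Irgm1, the best studied of the regulatory members and required in mice for resistance to several intracellular bacteria, was also the most abundant of the 6. It lies on chromosome 11 from 48861968 to 48871683 on GRCm38 (ENSMUSG00000046879). Its libraries held 849 and 916 counts with DI and 1418 and 1286 with DMSO. As CPM, counts scaled to library totals corrected by TMM factors, this gave 49.5 and 48.9 with DI and 76.1 and 77.2 with DMSO. The replicates of Irgm1 lay close together and the groups were well apart. Its mean level was 49.2 ± 0.432 CPM with DI and 76.7 ± 0.766 CPM with DMSO (SD, n = 2 each), which is -0.64 as a log2 fold change (standard error, SE, of 0.057 and adjusted p = 0.00216 by edgeR's quasi-likelihood test). Irgm1 was thus 1.56-fold higher with DMSO, and 4.37% of all tested genes had a lower log2 fold change.

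Irgm2, a regulatory member found mainly at the Golgi, gave 365 and 370 counts under DI against 559 and 506 under DMSO (chromosome 11 from 58199618 to 58222779, ENSMUSG00000069874). Its levels were 21.3 and 19.7 CPM with DI against 30.01 and 30.4 CPM with DMSO. The log2 fold change of Irgm2 was -0.56 (SE 0.081 and adjusted p = 0.00892 by edgeR). Igtp, the third regulatory member, which sits on the endoplasmic reticulum and lipid droplets, lies on chromosome 11 from 58199556 to 58207591 (ENSMUSG00000078853). Its counts were 220 and 233 with DI and 298 and 340 with DMSO. The DI libraries of Igtp stood at 12.8 and 12.4 CPM, while the DMSO libraries, at 15.998 and 20.4 CPM, differed from each other more than those of the other regulators. Its log2 fold change was -0.53 with a 95% interval of -0.87 to -0.18 (adjusted p = 0.0601, edgeR), close to the values of Irgm1 and Irgm2. Without DMSO replicate 1 it passed the threshold (log2 fold change -0.69, adjusted p = 0.0288, edgeR), and without DMSO replicate 2 it was at -0.34. The deposited spans of Igtp and Irgm2 overlap on the same strand, and 162 exonic bases, 8.01% of the Igtp exons in GENCODE M21, belong to both, so that some of their reads may be assigned to either gene.

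The effectors Iigp1, Tgtp1 and Tgtp2 were far less abundant. This was not so for Ifi47, a further effector given below, with 142 and 186 counts under DI against 359 and 234 under DMSO. Iigp1, whose product coats the parasite vacuole, lies on chromosome 18 from 60376029 to 60392627 (ENSMUSG00000054072) and gave 3 and 7 counts under DI against 19 and 30 under DMSO. Both DI libraries of Iigp1 lay under both DMSO libraries, but within each group the counts differed widely. Its level was 0.274 ± 0.140 CPM with DI and 1.41 ± 0.552 CPM with DMSO (SD, n = 2 each), and its log2 fold change was -2.30 (SE 0.54 and adjusted p = 0.0401 by edgeR). The 95% interval, from -3.62 to -0.98, was wide. The ratio of the summed counts, DMSO over DI, was 4.99 with an exact 95% counting interval of 2.50 to 11.04, which covers counting error only. The call did not hold when any 1 library was left out, with log2 fold changes of -1.88 without DI replicate 1, -2.95 without DI replicate 2, -2.67 without DMSO replicate 1 and -1.85 without DMSO replicate 2.

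Tgtp2 lies on chromosome 11 from 49057194 to 49064206 (ENSMUSG00000078921) and gave 15 and 16 counts under DI against 36 and 50 under DMSO. Its DI libraries stood at 0.874 and 0.853 CPM and its DMSO libraries at 1.93 and 3.002 CPM, so the DMSO libraries were higher and more spread. The log2 fold change of Tgtp2 was -1.499 (SE 0.34 and adjusted p = 0.0368 by edgeR), a 2.83-fold higher level with DMSO. Its adjusted p was above 0.05 without DI replicate 1, without DI replicate 2 and without DMSO replicate 2, at log2 fold changes of -1.51, -1.48 and -1.16. Tgtp1, on chromosome 11 from 48985327 to 48994172 (ENSMUSG00000078922), gave 1 and 1 counts under DI against 5 and 1 under DMSO. Its libraries thus held the same single count except for DMSO replicate 1. The ratio of its summed counts, DMSO over DI, was 3.05 with an exact 95% counting interval of 0.546 to 30.9, and a difference was not detectable at this depth. Over its whole length the Tgtp2 transcript has a copy in Tgtp1 at 99.8% identity, so the division of reads between these genes is uncertain. The counting program is not given, and whether reads matching both genes were counted at all is unknown. The levels of both genes may therefore be too low, and summing their counts would not restore reads left out. With the counts of Tgtp1 and Tgtp2 summed into 1 gene, the log2 fold change was -1.504 (adjusted p = 0.0254, edgeR).

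**Figure D2:**
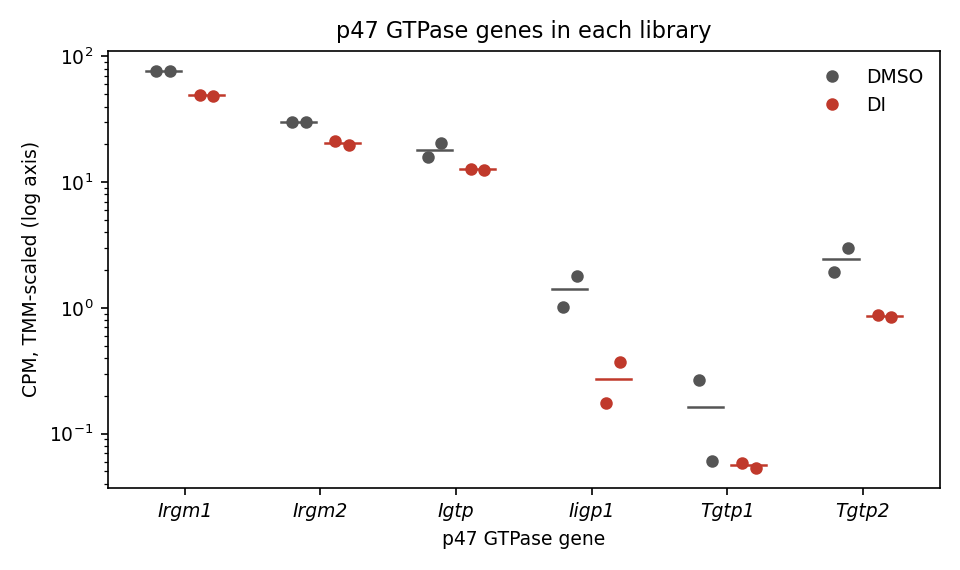
Levels of the 6 p47 GTPase genes in each library, in TMM-scaled CPM on a log axis, with DMSO in grey and DI in red. Points are libraries and short lines are group means of 2 libraries, and the DI points of Irgm1 (49.5 and 48.9 CPM) lie below its DMSO points (76.1 and 77.2 CPM) while those of Tgtp1 come from single counts.

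Levels of different genes were compared through the deposited FPKM values, which divide by gene length. The order was Irgm1, Irgm2, Igtp, Tgtp2, Iigp1 and Tgtp1 in both groups, and in neither group did the libraries of neighbours in this order overlap. With DMSO, Irgm1 stood at 10.9 ± 0.104 FPKM, Irgm2 at 4.51 ± 0.0372 FPKM, Igtp at 3.68 ± 0.630 FPKM and Tgtp2 at 0.804 ± 0.246 FPKM (SD, n = 2 each). Iigp1 was at 0.468 ± 0.183 FPKM and Tgtp1 at 0.0446 ± 0.0401 FPKM. The lengths behind the FPKM values exceed the GENCODE exons for some members, with 5121 against 2022 bases for Igtp and 6929 against 3690 bases for Irgm2. For Iigp1 the length is shorter than the GENCODE exons, at 3121 against 5823 bases. On GENCODE lengths Igtp stood above Irgm2 with DI, at 6.10 and 5.94 against 5.54 and 5.17 CPM per kilobase, so that their order turned without overlap. With DMSO, Igtp then had 9.33 ± 1.60 and Irgm2 8.48 ± 0.0699 CPM per kilobase (SD, n = 2 each), with overlapping libraries.

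The 6 genes together gave 84.7 and 82.3 CPM with DI and 125 and 133 CPM with DMSO, and Irgm1, Irgm2 and Igtp made up most of that sum. The effectors Iigp1, Tgtp1 and Tgtp2 supplied 2.73% and 3.25% of the summed FPKM of these 6 genes with DI and 5.32% and 7.50% with DMSO. Ifi47, a further effector given below and chosen after its values were seen, is not in this sum. Its mean was 2.11 FPKM with DI and 4.15 FPKM with DMSO, against 2.38 and 3.68 FPKM for Igtp. The share therefore describes the 6 genes and not all effectors of the family. The share was lower in both DI libraries, by 3.42 percentage points on average. It rests in part on Iigp1, which passed the filter through its DMSO libraries alone, and on Tgtp1, which did not pass it. The share also depends on the lengths behind the FPKM values, which are shorter than the GENCODE exons for Iigp1 and longer for Irgm2 and Igtp. Relative to Irgm1 in the same library, the log2 ratio of counts of Iigp1 averaged -7.59 with DI and -5.82 with DMSO. For Tgtp2 it averaged -5.83 and -4.99. For Irgm2 it was -1.26 and -1.34, and for Igtp -1.96 and -2.08, with overlapping libraries in the case of Igtp. These values are given as a description, since an exact two-sided permutation test of 2 libraries against 2 cannot give a p below 0.333 and so cannot decide whether effectors and regulators changed by different amounts.

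Beyond the 6 genes, the deposited table holds 10 of 18 further names written down for the family, and 5 of these were tested. Gm4951 was lower, with 8 and 10 counts with DI and 25 and 28 with DMSO (log2 fold change -1.58, SE 0.35 and adjusted p = 0.0353, edgeR). Like Iigp1 it passed the filter through its DMSO libraries alone. Its adjusted p was above 0.05 with any 1 library left out, between 0.0875 and 0.153, and was 0.0642 with the replicate number as a block. Its transcript resembles that of Iigp1, at 87.6% identity over 88.7% of its length. Gm5431 gave 83 and 86 counts under DI against 220 and 118 under DMSO, and its log2 fold change of -1.01 had an adjusted p of 0.0542 (edgeR). The DMSO libraries of Gm5431 differed, and without DMSO replicate 1 its log2 fold change was -0.59, against -1.32 with an adjusted p of 0.0144 without DMSO replicate 2 (edgeR). The abundant pair 9930111J21Rik1 and 9930111J21Rik2 had log2 fold changes of -0.05 (95% interval -0.33 to 0.24) and -0.07 (-0.26 to 0.11), and their groups overlapped. They share transcripts at 98.8% identity and each also resembles Gm5431, so reads may be divided between these 3 genes. Gm12185, whose promoter carries the joined GAS and ISRE letters, gave 37 and 30 counts under DI against 28 and 33 under DMSO (log2 fold change 0.11, 95% interval -0.61 to 0.83), and its groups overlapped. Its transcript resembles that of Gm5431, at 92.96% identity over 50.4% of its length. It also shares 223 exonic bases with Tgtp1, so some reads of Gm12185 may be assigned to other genes of the family. Ifi47, a further effector of the family that the list had left out and that was chosen after its values were seen, gave 142 and 186 counts under DI against 359 and 234 under DMSO. Its log2 fold change was -0.87 (SE 0.19 and adjusted p = 0.0302 by edgeR), and its adjusted p was 0.0649 without DI replicate 1, 0.0919 without DMSO replicate 1 and 0.0684 with the replicate number as a block.

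**Figure D3:**
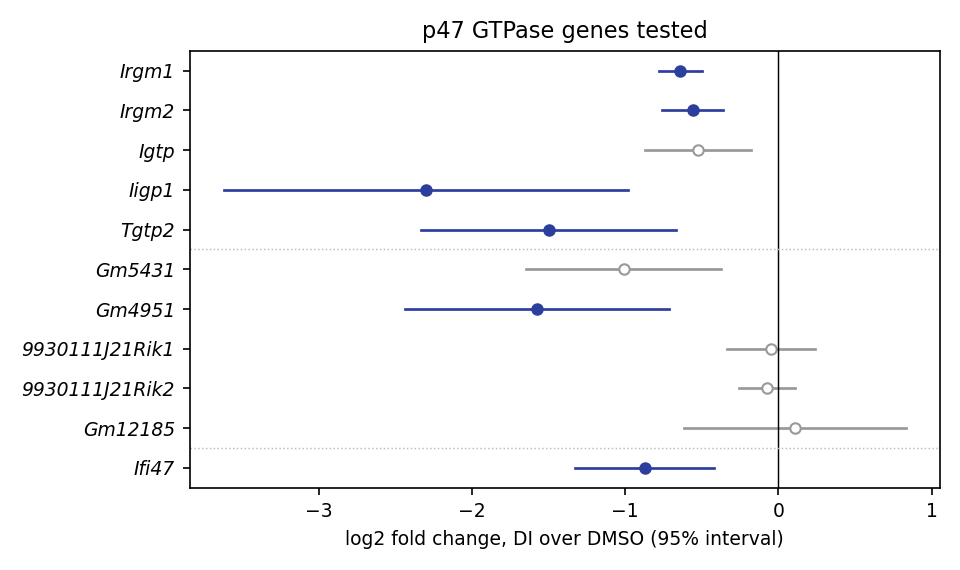
Log2 fold changes (DI over DMSO) with 95% intervals for the 5 tested members (top), the 5 tested further genes of the family (middle) and Ifi47 (bottom). Filled blue points have an adjusted p under 0.05 and open grey points do not, and the intervals run from -3.62 for Iigp1 to 0.83 for Gm12185.

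The genes upstream of the family are given by their roles. All 21 interferon genes of the list, among them Ifng, Ifnb1 and the Ifna genes, were without a count in any library. At these depths a count of 0 allows a level of up to 3 counts, 0.160 to 0.180 CPM per library. Of the 7 receptor and kinase genes, all were tested and none passed. Ifngr1 and Ifngr2, the chains of the interferon-γ receptor, had log2 fold changes of -0.01 (95% interval -0.13 to 0.11) and 0.03 (-0.07 to 0.13), at means of 122 and 198 CPM with DI. Ifnar1 and Ifnar2, the chains of the type I interferon receptor, had log2 fold changes of -0.0050 (-0.10 to 0.09) and -0.08 (-0.20 to 0.04). Among the kinases, Jak2 was at 0.02 (-0.13 to 0.18), Tyk2 at -0.05 (-0.19 to 0.09) and Jak1 at 0.13 (0.04 to 0.22, adjusted p = 0.0663, edgeR).

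Of 9 transcription factors and coactivators, 4 were lower and 1 higher with DI. Stat2 and Irf9, which act together in the type I pathway, were at -0.61 and -0.46, with adjusted p-values of 0.00618 and 0.00980 (edgeR). Irf7, which amplifies the type I response, was the lowest of the list at -1.18 (SE 0.11 and adjusted p = 0.00248 by edgeR). Nlrc5, an activator of MHC class I genes, was at -0.31 (adjusted p = 0.0275, edgeR), but its adjusted p was above 0.05 whenever 1 of the libraries was left out, between 0.0676 and 0.129. Irf1, a factor that interferon-γ induces, had a log2 fold change of -0.24 (95% interval -0.42 to -0.06, adjusted p = 0.0866, edgeR). Irf8, which guides the development of macrophages, was higher, with 2135 and 2359 counts with DI and 1703 and 1537 with DMSO (log2 fold change 0.45, SE 0.045 and adjusted p = 0.00301, edgeR). Irf7, Stat2 and Irf9 thus lay lower together with the p47 GTPase genes, while Irf8 lay higher.

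Among 6 feedback inhibitors, 5 were tested and 2 were lower. Usp18, which shuts off the type I receptor, gave 153 and 121 counts under DI against 322 and 346 under DMSO (log2 fold change -1.31, adjusted p = 0.00776, edgeR). Socs3 was at -0.99 (adjusted p = 0.0119, edgeR), and its adjusted p was 0.0551 without DMSO replicate 1. Socs1, the main inhibitor of interferon-γ signalling, was at -0.01 (95% interval -0.80 to 0.77), an interval too wide to place it. Pias1 was at -0.12 and Ptpn2 at -0.15, with adjusted p-values of 0.210 and 0.277 (edgeR).

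The p47 GTPases need part of the autophagy machinery, which attaches the LC3 and GABARAP proteins to membranes, to reach the parasite vacuole. The list made for this machinery holds 13 genes and includes the receptor gene Sqstm1 beside genes of the attachment itself. All 13 were tested, 5 were higher with DI and none was lower. Sqstm1, which encodes the autophagy receptor p62, had the largest change, with 23422 and 25617 counts with DI and 16753 and 13386 with DMSO (log2 fold change 0.68, SE 0.056 and adjusted p = 0.00180, edgeR). Gabarap, Gabarapl1, Gabarapl2 and Map1lc3a, which encode proteins that are attached, were at 0.26, 0.39, 0.25 and 0.39. Their adjusted p-values were 0.00741, 0.0125, 0.0464 and 0.0474 (edgeR). Those of Gabarapl2 and Map1lc3a were above 0.05 with any 1 library left out, between 0.0909 and 0.160, with library size only, at 0.159 and 0.0929, and with the replicate number as a block, at 0.0799 and 0.0869. The median of the 13 genes was 0.21. The remaining 8 genes, among them Atg5 at 0.21, did not pass. The opposite direction of the p47 GTPase genes and this list is given as counted, and no test of it was made.

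**Figure D4:**
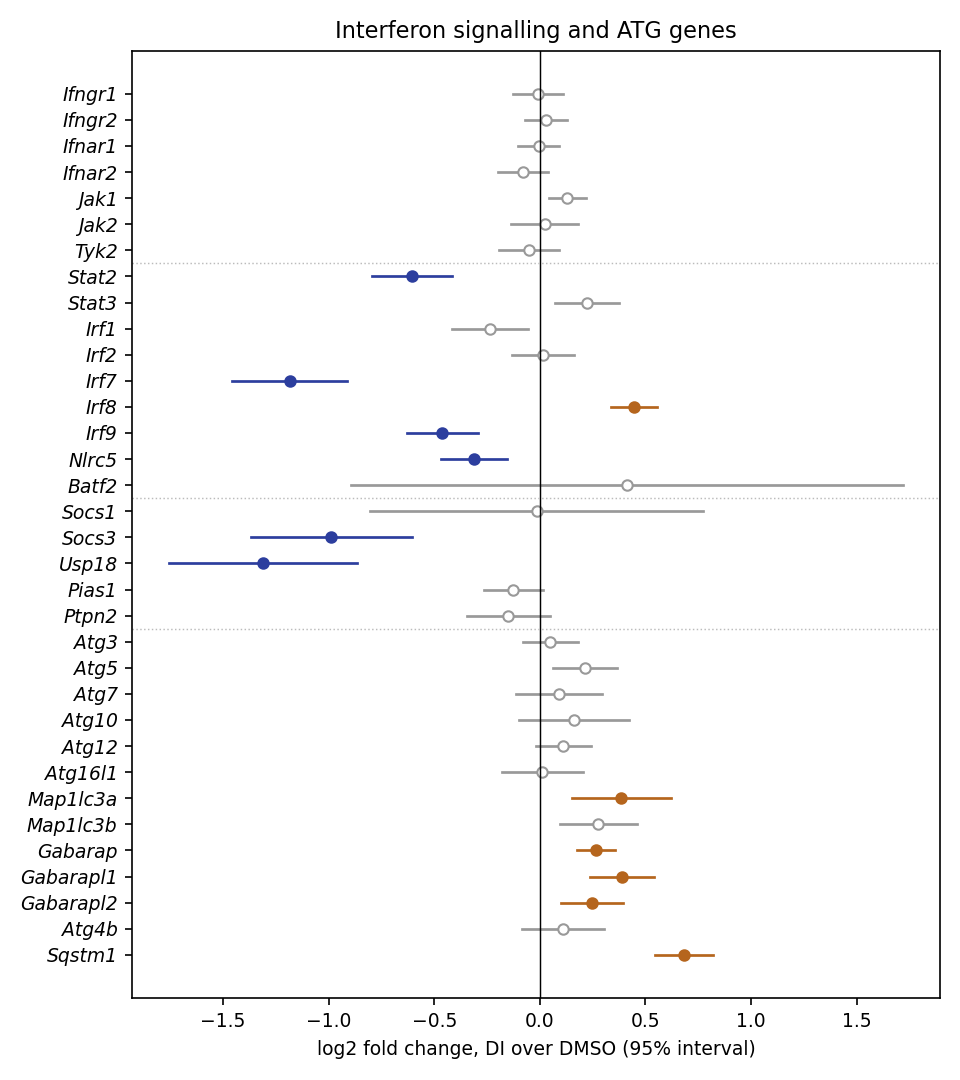
Log2 fold changes (DI over DMSO) with 95% intervals for the tested genes of interferon signalling and of the ATG list, which includes Sqstm1. The 4 blocks from top to bottom are receptors and kinases, transcription factors, feedback inhibitors and ATG genes. Filled points have an adjusted p under 0.05 (blue lower, brown higher), the receptors and kinases all being open, with Irf7 at -1.18 and Sqstm1 at 0.68.

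In the 4 libraries, the genes whose profile lay nearest to the family's were sought among all other tested genes. The measure was the Euclidean distance between a gene's log2 CPM, centred on its mean, and the median of the 5 tested members. The nearest were Bub1, Hmmr, Mdm1, Kif15 and Aspm, at distances of 0.0561, 0.0633, 0.0635, 0.0641 and 0.0659. Their log2 fold changes lay between -0.72 and -0.66. With 2 groups of 2 libraries, the centred profile is mainly the difference between the groups. Fold changes of this size thus follow from the way these genes were chosen. The median profile does not represent Iigp1 or Tgtp2, at -2.30 and -1.499, and shared regulation was not tested.

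Genes with the same promoter letters were counted across the transcriptome as well. Of 358 tested genes with an ISRE core in the promoter, 61 (17.04%) were lower and 22 (6.15%) higher with DI. Of 755 with a GAS element, 70 (9.27%) were lower and 55 (7.28%) higher. Among all 9216 tested genes with a promoter entry these shares were 8.14% and 7.26%. The counts include the members themselves, and no test was made of them.

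The cells carried macrophage markers at high levels, with Lyz2, Cd68, Csf1r and Adgre1 each with 17037 counts or more in every library. Of the osteoclast markers, 5 of 8 were lower with DI, Mmp9 at -1.64 and Ocstamp at -2.52 among them, and 1 was higher. Of the 9 entries of macrophage markers, which cover 8 genes, 5 were higher and 2, Fcgr1 at -0.60 and Cd14 at -0.51, were lower. Itgam has 2 entries that differed. The first was higher at 0.57 (adjusted p = 0.00186, edgeR), and the second, at 0.16, did not pass (adjusted p = 0.245, edgeR). The adjusted p of Fcgr1 was above 0.05 without DI replicate 2 (0.0826), without DMSO replicate 1 (0.0758), without DMSO replicate 2 (0.106) and with the replicate number as a block (0.0619, edgeR). Of 8 markers of T and NK cells, 6 had no count in any library, Cd3e among them, and 1 was tested and did not pass. Of 5 markers of plasmacytoid dendritic cells, 2 had no count, Siglech among them, and none was tested. The summed markers of T and NK cells stood at 0.693 to 0.699 CPM with DI and 0.240 to 0.591 CPM with DMSO, and those of plasmacytoid dendritic cells at 0.373 to 0.524 CPM and 0.537 to 0.600 CPM. Ighm, an immunoglobulin gene, was higher at 1.03 (adjusted p = 0.00298, edgeR), and it made up nearly the whole sum of the B cell markers, with 21.2 of 21.3 and 23.2 of 23.5 CPM with DI and 10.5 of 10.7 and 11.2 of 11.8 CPM with DMSO. The other B cell markers, Cd79a, Cd79b and Ms4a1, were not tested and gave 0 and 2, 2 and 3, and 0 and 0 counts under DI against 2 and 1, 0 and 8, and 2 and 1 under DMSO. No neutrophil or stromal marker passed, their sums lying between 8.70 and 10.4 CPM and between 41.4 and 51.3 CPM over the 4 libraries. The part of these marker differences in the lower p47 GTPase levels was not tested. Libraries held between 16085692 and 19403480 counts.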

How the data were processed

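RNA was measured by paired-end mRNA sequencing in 2 libraries with DI and 2 with DMSO, grouped by their labels. The authors deposited unnormalised read counts for every gene in every library, and FPKM values normalised to gene length and library total. A second deposited table repeats them with annotations and was not used. The aligner and the counting program are not given in the sources used here, and the submitters' processing notes name the builds GRCm38 and mm10. No source says whether reads were counted by strand.

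The main test on the counts was that of edgeR 4.0.16 in R 4.3.3 (TMM factors, filterByExpr, quasi-likelihood fit with condition as its only term), and p-values were adjusted over the 12590 tested genes by the Benjamini-Hochberg method, with a threshold of 0.05. The SE of a log2 fold change is its size over the square root of F. Genes that failed the filter were read from a fit without it. The steps were tested on simulated data. The depth, 16085692 to 19403480 counts per library, puts 3 counts at 0.160 to 0.180 CPM, and intervals of counts cover counting error only. Chi-square per degree of freedom between replicates was 7.57 with DI and 7.74 with DMSO, above sampling noise.

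Alternatives were other scalings, other filters, the DESeq2 1.42.0 Wald test, limma-voom (limma 3.58.1), the replicate number as a block, Tgtp1 and Tgtp2 summed, and each library left out. The members, the lists and the alternatives were chosen with earlier results of these data known. The text names the members, tested relatives, preset interferon genes, up to 4 genes per list by adjusted p, called list members and the 5 nearest profiles. Some genes of the rule and the lists are not reported here. Gm12250, which the rule includes, was not analysed here, and marker lists are given by counts. Transcripts were compared by BLAST with GENCODE M21, and promoters are RefSeq's on GRCm38.p6.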

Additional observations from a re-analysis of the deposited data

How the results depend on the processing

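Irgm1 and Irgm2 were lower with DI at an adjusted p under 0.05 in all 12 alternatives run on each, with adjusted p-values of at most 0.0107 and 0.0382 (edgeR, DESeq2 or limma-voom). Of the 6 members, 4 passed as reported, 5 with library size only and 5 without a filter, 3 with at least 10 counts in every library, which removes Iigp1, and 2 with the DESeq2 Wald test, which gave no adjusted p for Iigp1, and 2 with limma-voom. With each library left out in turn, when the lone library of a group is assumed to vary like those of the other, 2 to 4 passed. No member changed sign. Igtp passed with library size only (-0.63) and without a filter (-0.53), and lay between -0.69 and -0.34 with a library left out. Iigp1 did not pass with limma-voom (-2.24), and lay between -2.95 and -1.85 with a library left out. Tgtp2 did not pass with the DESeq2 Wald test (-1.51) or limma-voom (-1.43), and lay between -1.79 and -1.16 with a library left out. Apart from settings that use fewer genes or libraries, the cause of these changes was not tested.

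Library size only moved the median of all genes to -0.10 and that of the members to -0.74. It called 1932 genes lower and 548 higher, against 969 and 899 as reported. With a library left out the counts were 529 to 712 lower and 558 to 682 higher, and 4 to 6 genes of the interferon, autophagy and further p47 GTPase lists together were lower, against 7 as reported and 11 with library size only. The summed level of the 6 genes, DI over DMSO, was 0.647, or 0.602 by library size only and 0.593 from FPKM.

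The replicate numbers share no stated origin, and deviations of same-numbered libraries correlated at -0.030 across genes. With the replicate number as a block, 704 genes were lower and 685 higher, 3 members passed, and Tgtp2 did not (-1.49, adjusted p = 0.0569, edgeR), nor did Gm4951, Ifi47, Gabarapl2, Map1lc3a and Fcgr1. With this block Socs1 was at 0.020 (0.028 with limma-voom).

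Signs turned for genes near 0. With library size only Ifngr2 was at -0.075 and Jak2 at -0.081. With a library left out Ifngr1 ranged from -0.047 to 0.029, Ifnar1 from -0.03 to 0.024, Jak2 from -0.016 to 0.066, Socs1 from -0.35 to 0.46, 9930111J21Rik1 from -0.17 to 0.086, 9930111J21Rik2 from -0.15 to 0.0073 and Gm12185 from -0.11 to 0.32. Depth limits Iigp1, Tgtp1 and Tgtp2, whose libraries held at most 50 counts.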
